A study of Homo sapiens with 10 samples.

Results

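The G1 cyclins, the cyclin-dependent kinases (CDKs) they activate and the inhibitors of these kinases were followed in cultured human cells of chronic myeloid leukaemia (CML), an established line, and in a subline that resists the alkylating drug cyclophosphamide. The genes were CCND1, CCND2, CCND3, CCNE1, CDK2, CDK4, CDK6, CDKN1B, CDKN2A and CDKN2C, and each was read from every probe set that the platform annotation assigns to it alone. For 9 of the 10 genes there were such probe sets, 18 of the 12558 human probe sets tested, while no probe set was named for CDKN2C, which is therefore not analysed here. The data are 10 oligonucleotide arrays of 1 colour, 5 of sensitive and 5 of resistant cells, all grown in culture medium and with no treatment named for either group. The sources used here do not say which line this was, how resistance was raised, whether the subline is a single clone or whether drug was present when RNA was taken. They also do not say whether the 5 samples of each kind were separate cultures. The p-values therefore cover only the spread among these samples, and this may be technical.

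Entry into the cell cycle is decided late in G1. D-type cyclins bind CDK4 and CDK6, and these kinases phosphorylate the retinoblastoma protein RB, which then releases E2F transcription factors. Cyclin E with CDK2 completes this step and starts DNA replication. Inhibitors of the INK4 family, such as the products of CDKN2A and CDKN2C, bind CDK4 and CDK6, whereas those of the CIP/KIP family, such as CDKN1B, act on cyclin E with CDK2. In CML cells the BCR-ABL kinase is known to raise cyclin D2 and to lower the CDKN1B protein, much of it after transcription, which arrays do not measure.

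Each signal is an intensity on a linear scale. Differences are resistant minus sensitive on the log2(signal + 114.8) scale, where the added constant makes changes of dim probe sets look smaller. A call is an adjusted p under 0.05 in limma after Benjamini-Hochberg adjustment over all probe sets. As a background limit, each array's 95th percentile of 32 control probe sets for sequences not found in humans was used, between 319.7 and 739.8. Sensitive arrays had 52.7% to 59.1% of all probe sets above it and resistant arrays 51.0% to 61.3%. The labels of a CML line were set against cell type markers, and these did not all point one way. Of 7 measured myeloid markers PTPRC, the common leukocyte antigen, was above the limit on all 10 arrays. CD34 was above it on 5 sensitive and 4 resistant arrays, MPO on 1 sensitive and 2 resistant arrays and KIT on 0. CEBPA and ANPEP were called lower in resistant cells (log2 differences -1.44 and -1.61, adjusted p = 0.0283 and 0.0211, limma), and SPI1 had -1.07 (adjusted p = 0.0529). Of 5 epithelial markers, KRT8 was above the limit on all 10 arrays (means 4837 and 4404) and KRT18, KRT19 and EPCAM on 0. CDH1 was above it on 3 sensitive and 2 resistant arrays. The means of the 3 measured fibroblast markers were at most 281.8 in either group. Of 3 measured B cell and 4 T cell markers 0 were called. CD79A was above the limit on 3 sensitive arrays and 1 resistant array, CD3E on 3 of each group and CD2 on 1 sensitive array. CD79B, MS4A1, CD3D and CD3G exceeded it on 0 arrays. The lines differed in lineage markers, and all 6 granulocyte markers were called lower in resistant cells, with a summed signal of 152027 to 402082 on sensitive arrays and 562 to 1869 on resistant arrays. Of 3 erythroid markers KLF1 alone was called, higher at 2.87, while GATA1 had 1.49 and ALAS2 0.28 (adjusted p = 0.14 and 0.644). The sensitive arrays were not all alike. GATA1 read 431, 511 and 968 on sensitive arrays 1 to 3, but 3800 and 3650 on sensitive arrays 4 and 5, within the resistant range. The granulocyte marker CLC read 3813, 3860 and 3590 against 41628 and 107507 on the same arrays. PRTN3, ELANE, AZU1 and CEBPE did not split this way, and the cause was not tested. Of 4 megakaryocyte markers ITGA2B alone was called, higher at 3.40, and PF4, GP1BA and PPBP exceeded the limit on 0 arrays. The part of these lineage differences in any result on the G1 genes was not tested, and in RNA from whole cultures fewer cells of a type and less RNA per cell cannot be told apart.

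CCND2, the cyclin D2 gene, was higher in resistant cells in both of its probe sets, and the other 8 measured genes of the group were not called in any of theirs. The 2 called probe sets of 18 compare with 7.41% of all probe sets called, 4.42% higher and 2.99% lower. Groups did not overlap in the same 2 probe sets, and in 8.5% of all. The median difference was 0.13 over the 18 probe sets and 0.03 over all 12558. Of the 16 probe sets not called, 9 had a positive and 7 a negative difference (7 and 9 with arrays scaled to a common median, where CDK2 1833_at and CDK6 1207_at changed sign), 2 reached an unadjusted p under 0.05 (17.9% of all probe sets did), and the lowest adjusted p was 0.23. The 95% interval of the difference lay within a 2-fold change either way for 11 of the 16. For the other 5 a change of that size is within the interval. Among the 11, CCNE1 2021_s_at was above the limit on only 2 arrays of each group. CDKN1B 33848_r_at was above it on 1 sensitive and 2 resistant arrays. In such dim probe sets the added constant shrinks differences, so their intervals do not bound the change of the transcript.

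**Figure D1:**
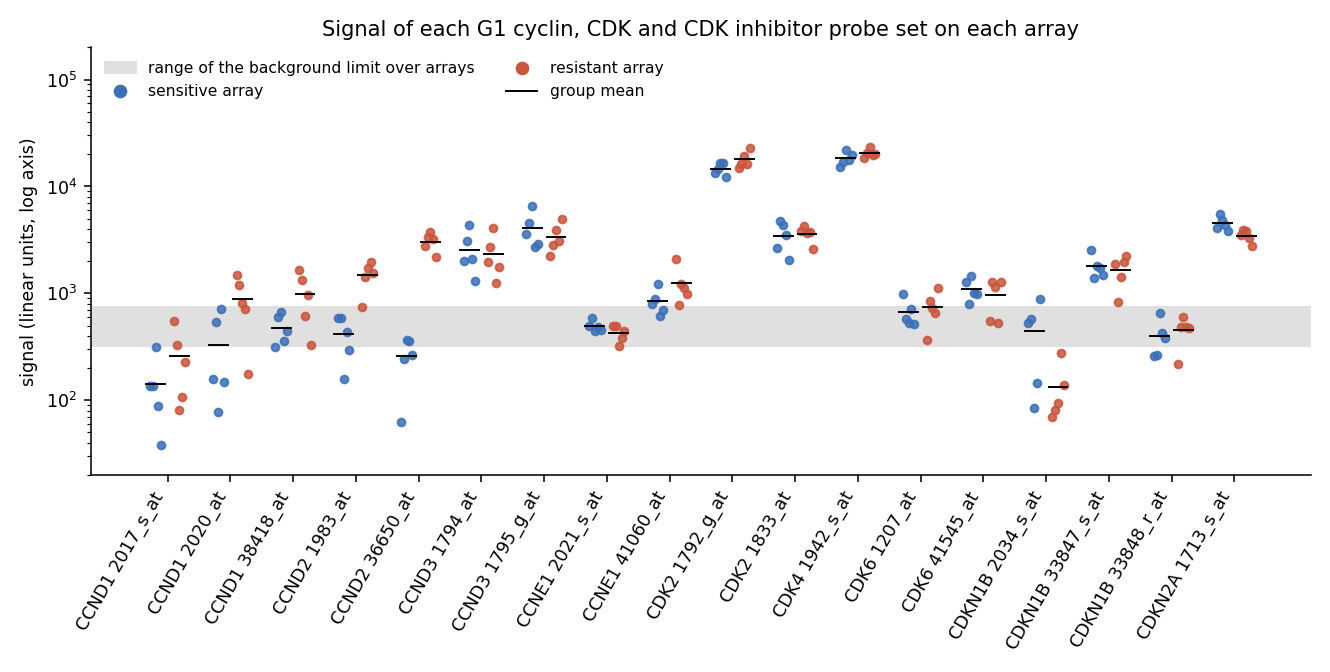
Signal of each of the 18 probe sets on each array, on a log axis, with sensitive arrays in blue, resistant arrays in red, the group mean as a black line and the range of the background limit (319.7 to 739.8) as a grey band. The 5 resistant arrays of CCND2 36650_at lie between 2179 and 3746 and its sensitive arrays between 62.4 and 370, whereas the groups of the genes other than CCND2 overlap.

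Of the D-type cyclins CCND2 alone was called. CCND2 36650_at had signals of 62.4, 243, 370, 361 and 264 on sensitive arrays 1 to 5. On resistant arrays it had 2758, 3369, 3746, 3223 and 2179. Every sensitive array was at or below its limit and every resistant array well above, with a wide gap between the groups. CCND2 was thus at least 6.2-fold higher in resistant cells by this probe set, with the sensitive side set to the limit (log2 difference 3.14, SE 0.28, adjusted p = 1.93e-05, limma).

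The other CCND2 probe set, 1983_at, read 592, 588, 157, 434 and 293 on sensitive arrays 1 to 5. It read 751, 1420.5, 1716, 1987 and 1546 on resistant arrays 1 to 5. Only resistant array 1 came near the sensitive range. Sensitive arrays 1 and 2 were above their limits, so part of the sensitive signal is measured here. The group means were 413 ± 189 and 1484 ± 461 (SD, n = 5), with a log2 difference of 1.63 (SE 0.31, adjusted p = 0.00673, limma). Both probe sets were called without any 1 of the 10 arrays, with log2 differences of 2.89 to 3.25 for 36650_at and 1.41 to 1.83 for 1983_at.

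CCND1, the cyclin D1 gene, is a cyclin of many epithelial tumours and is as a rule low in blood cells. It was dim and uneven. Probe set 38418_at, its brightest, gave 315, 601, 670, 359 and 442 on sensitive arrays and 1671, 1339, 612, 957 and 330 on resistant arrays. Resistant arrays 1, 2 and 4 lay above all sensitive arrays and resistant array 5 lay below most of them. The log2 difference was 0.76 with a 95% interval of -0.01 to 1.54 (adjusted p = 0.289, limma). Probe set 2020_at gave 157, 539, 78, 716 and 149 on sensitive arrays and 1495, 1211, 818, 712 and 176 on resistant arrays, a difference of 1.20 with an interval of 0.09 to 2.31 (adjusted p = 0.23). Here too resistant arrays 1 and 2 were the highest. Resistant array 3 also lay above all sensitive arrays, and resistant array 5 was the lowest of its group. In 2017_s_at, where 1 resistant array and 0 sensitive arrays exceeded the limit, the difference was 0.48 (interval -0.31 to 1.28, adjusted p = 0.568), and resistant array 1 was again the highest. Neither a rise of CCND1 nor its absence is shown by these values.

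CCND3 encodes cyclin D3, the D-type cyclin of many maturing blood cells, and was above the limit on all 10 arrays. Probe set 1795_g_at gave 3556, 4573, 6589, 2713 and 2924 on sensitive arrays and 2217, 2811, 3905, 3096 and 4989 on resistant arrays. The ranges overlapped almost wholly, with a log2 difference of -0.23 and a 95% interval of -0.85 to 0.39 (adjusted p = 0.765, limma). The second probe set, 1794_at, was designed from the same transcript record and gave 2570 ± 1186 and 2345 ± 1101 (SD, n = 5; difference -0.12, interval -0.90 to 0.65, adjusted p = 0.915). Within each array the log2 signal of CCND2 36650_at minus that of CCND3 1795_g_at went from -3.49 ± 0.71 in sensitive to -0.12 ± 0.60 in resistant arrays (SD, n = 5). Since CCND2 was at or below its limit on every sensitive array, that shift of 3.37 rests on signals within the background. With those signals set to the limit, the shift was at least 2.60, with an exact two-sided permutation p of 0.00794, the smallest that 5 against 5 arrays can give, or 0.0159 adjusted over the 2 ratios tested (the same p-values as without the limit). Probe sets differ in how strongly they bind, so the level of the ratio is not read.

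CCNE1 encodes cyclin E1, the partner of CDK2 and itself a target of E2F. Its 2 probe sets, designed from 1 transcript record, had differences of opposite sign and were not called. Probe set 41060_at gave 802, 882, 1212.5, 614 and 695 on sensitive arrays and 2102, 786, 1212, 1122 and 990.2 on resistant arrays. Resistant array 1 stood above the rest, which overlapped. The log2 difference was 0.47 (95% interval -0.10 to 1.03, adjusted p = 0.388, limma). Probe set 2021_s_at, near the limit with 2 arrays of each group above it, gave 493 ± 57.2 and 428 ± 75.0 (SD, n = 5; difference -0.17, interval -0.54 to 0.20, adjusted p = 0.69).

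The kinase genes CDK2 and CDK4 were above the limit on all 10 arrays in every probe set and were not called. CDK4 1942_s_at gave 15136, 17099, 22030.3, 17553 and 19559 on sensitive arrays and 18456, 20750.5, 23190.4, 19551 and 19939 on resistant arrays. Only sensitive arrays 1, 2 and 4 lay below the resistant range, and the difference was 0.16 with a 95% interval of -0.20 to 0.53 (adjusted p = 0.698, limma). CDK2 1792_g_at gave 13371, 14471, 16515, 16598 and 12228 against 14959, 16240, 19373, 16160 and 22856. Its difference was 0.28 (interval -0.12 to 0.68, adjusted p = 0.489), and that of the other probe set, CDK2 1833_at, was 0.10 (interval -0.44 to 0.65, adjusted p = 0.895).

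CDK6, the second partner of D-type cyclins, came near its limits, and 1207_at exceeded them on 4 of 5 arrays of each group. Probe set 41545_at gave 1290, 789, 1442, 999 and 989 on sensitive arrays and 551, 1291, 1143, 530 and 1275 on resistant arrays. Resistant arrays 1 and 4 were low and the other 3 were in the sensitive range. The log2 difference was -0.24 (95% interval -0.85 to 0.37, adjusted p = 0.742, limma), and in 1207_at it was 0.11 (interval -0.46 to 0.69, adjusted p = 0.894). The signs of the 2 probe sets differ.

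The inhibitors CDKN1B and CDKN2A were not called. The brightest probe set of CDKN1B, which encodes the CIP/KIP inhibitor p27, was 33847_s_at. It gave 2520, 1387, 1821, 1736 and 1493 on sensitive arrays and 1892, 835, 1417, 1978 and 2230 on resistant arrays, with wide overlap (log2 difference -0.13, 95% interval -0.71 to 0.45, adjusted p = 0.871, limma). Probe set 33848_r_at had a difference of 0.15 (interval -0.42 to 0.73, adjusted p = 0.848). The third, 2034_s_at, gave 525, 571, 84.4, 145 and 889 on sensitive arrays and 69.7, 81.8, 94.4, 280 and 138 on resistant arrays. Sensitive arrays 1, 2 and 5 were above their limits, whereas sensitive arrays 3 and 4 and all resistant arrays were not. Its difference of -0.98 (interval -1.91 to -0.05) had an adjusted p of 0.244. All 3 were designed from 1 transcript record, and the sources used here do not say which parts of it they cover. The log2 ratio of CDKN1B 33847_s_at to CDK2 1792_g_at changed by -0.42 between the groups (exact two-sided permutation p = 0.206, and 0.206 adjusted over the 2 ratios).

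CDKN2A encodes both the INK4 inhibitor p16 and, in another reading frame, the ARF protein that stabilises p53. The locus is deleted in many leukaemia lines, and its copy number was not measured here. The 1 probe set of CDKN2A, 1713_s_at, was above the limit on all 10 arrays. It gave 4113, 5550.4, 4875, 4326 and 3796 on sensitive arrays and 3525, 3957, 3817, 3295 and 2796 on resistant arrays. Resistant arrays 2 and 3 exceeded only the lowest sensitive array. The log2 difference was -0.37 (SE 0.18, 95% interval -0.75 to 0.02), which was not called (adjusted p = 0.304, limma). The exact two-sided permutation p of this single value was 0.0238, 1 of 18 probe sets looked at and not adjusted. The sources used here do not say which transcripts of the locus the probe set reads.

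**Figure D2:**
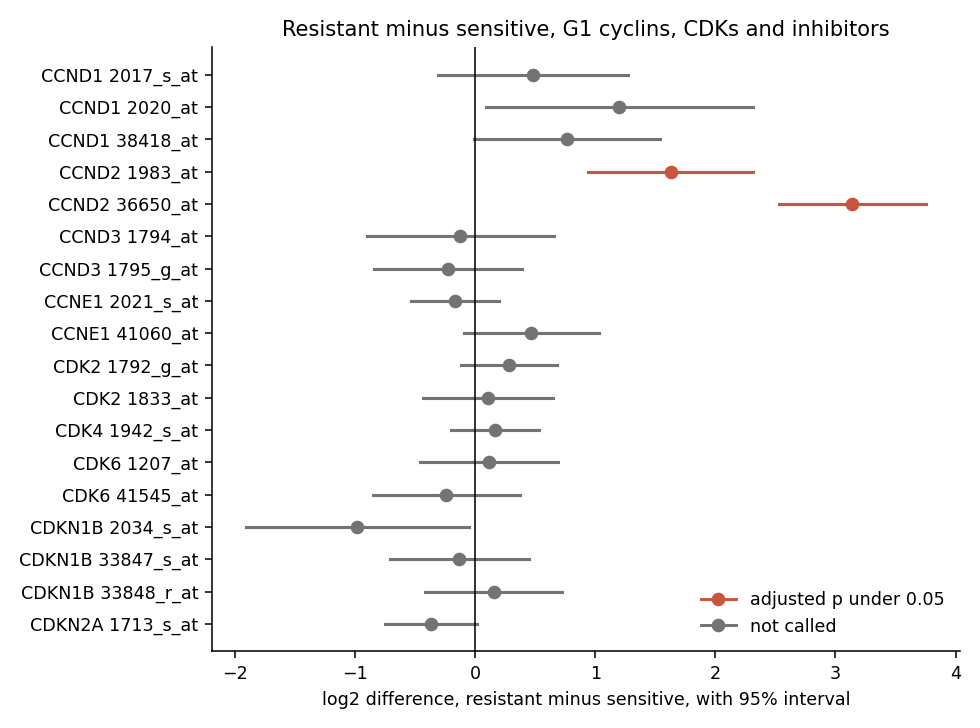
Log2 difference, resistant minus sensitive, of the 18 probe sets with its 95% interval from limma, in red where the adjusted p was under 0.05. The 2 CCND2 probe sets, at 3.14 and 1.63, are the only ones in red, and the intervals of CCND1 2020_at and CDKN1B 2034_s_at exclude 0 without passing the adjustment.

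Other genes of the pathway were counted by role, each by its brightest probe set, in 6 lists with 72 measured genes of 77. Of the 72 genes, 4 were called higher and 3 lower, beside 8.4% of all 8226 genes (4.94% higher and 3.46% lower). The median difference was 0.05 for the 72 and 0.03 for all genes. The count is therefore near the background, and only the named genes are described.

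Among 11 other cyclins, kinases and inhibitors of the G1 to S step, 1 was called higher and 1 lower. CDKN1C, which encodes the CIP/KIP inhibitor p57, was called higher in all 3 of its probe sets. Probe set 39545_at gave 459, 64, 462, 243 and 916 on sensitive arrays and 2245, 2662, 1281, 3181 and 1887 on resistant arrays. The highest sensitive array stayed below the lowest resistant one, and sensitive arrays 1 and 5 were above their limits. The log2 difference was 2.29 (SE 0.41, adjusted p = 0.00434, limma). In 1787_at and 38673_s_at all sensitive arrays were at or below the limit and 4 of 5 resistant arrays above it, so CDKN1C was at least 1.57-fold and at least 1.4-fold higher (adjusted p = 0.00162 and 0.00802). The signals of CDKN1A, the third CIP/KIP gene, stayed at or under the limit on all 10 arrays.

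**Figure D3:**
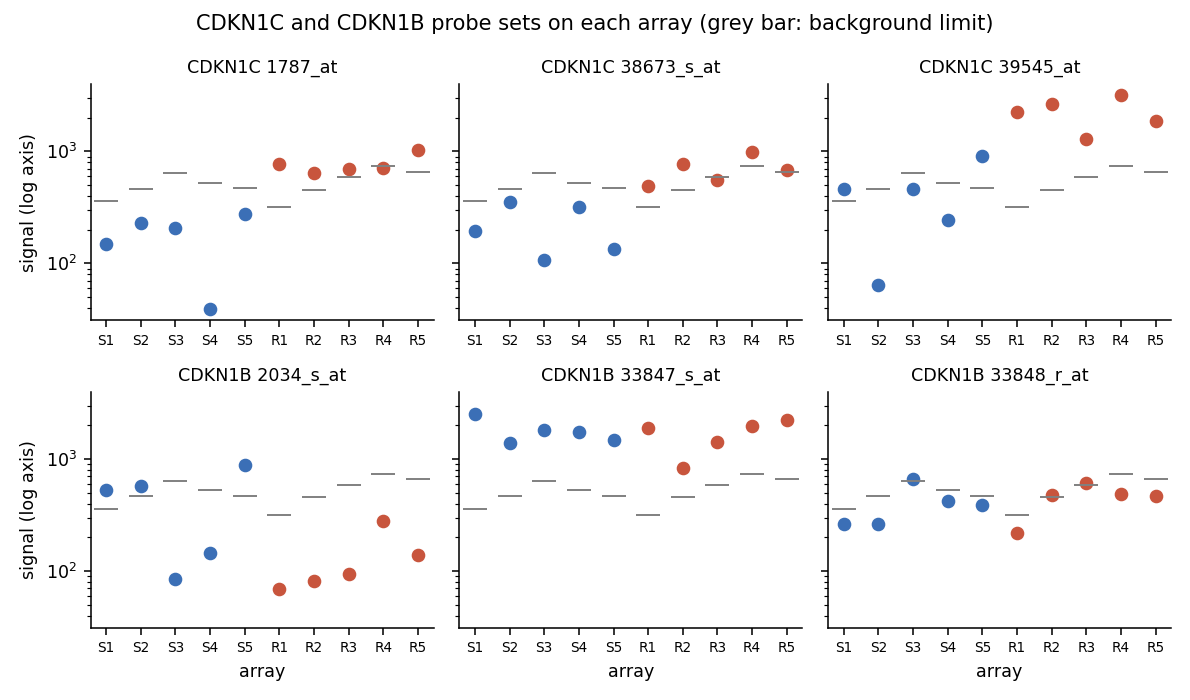
Signals of the 3 CDKN1C probe sets (upper row) and the 3 CDKN1B probe sets (lower row) on sensitive arrays S1 to S5 (blue) and resistant arrays R1 to R5 (red), on a log axis, with each array's background limit as a grey bar. The groups do not overlap in CDKN1C, while in CDKN1B they overlap in all 3 probe sets and 2034_s_at exceeds the limit on 3 of the sensitive and 0 of the resistant arrays.

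CCNE2, the cyclin E2 gene, was lower in resistant cells, at 7142, 8609, 11330.2, 4400 and 4898 on sensitive arrays against 2256, 3190, 3613, 1879 and 1678 on resistant arrays. The groups did not overlap (log2 difference -1.46, SE 0.30, adjusted p = 0.00988, limma). CCNE2 lies on chromosome 8, as do the other pathway genes called lower, MCM4 (helicase subunit, -1.25, adjusted p = 0.00251) and COPS5 (COP9 signalosome subunit, -0.80, adjusted p = 0.0349). Of 188 genes on that chromosome that were above the limit on at least 3 arrays of either group, 68 were called lower (36.2%) and 13 higher (6.91%), against 5.1% and 6.97% of all 5296 such genes. The median difference was -0.46 there and 0.03 over all such genes. COPS5 lost its call without any 1 of sensitive arrays 1 to 4 or resistant arrays 1, 4 and 5, at adjusted p-values of up to 0.0963.

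None of 11 genes of the RB and E2F families was called by its brightest probe set in limma, but TFDP1 and E2F6 lay near the threshold. An unadjusted p under 0.05 was reached by 1 that was higher, E2F6, and 3 that were lower, beside 17.9% of all probe sets. E2F6 had a difference of 0.68 (adjusted p = 0.0567), its groups did not overlap, and it is named after its values were seen. TFDP1, a partner of E2F factors in binding DNA, is named after its values were seen. Its dimmer probe set 1670_at fell from 3832 ± 715 to 1506 ± 386 (SD, n = 5; log2 difference -1.29, adjusted p = 0.00218), while the brighter 37757_at had a difference of -0.84 (adjusted p = 0.0502). The brighter probe set was called under 5 of 17 alternatives, among them without resistant array 1 (adjusted p = 0.0241), and its adjusted p ranged from 0.00715 to 0.119. RB1, E2F1 and TFDP2, another such partner, had differences of 0.05, 0.16 and 0.51 (adjusted p = 0.942, 0.761 and 0.368). Among 12 genes of CDK activation and inhibitor degradation COPS5 alone was called. CKS1B and SKP2, which take part in the degradation of the CDKN1B protein, had differences of -0.01 and -0.39 (adjusted p = 0.989 and 0.593).

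Genes that E2F turns on at the start of S phase read out the RB step. Their promoters are shown by 2 examples, since E2F binds sites of the form TTTCCCGC, TTTGGCGC, TTTCGCGC or TTTGCCGC. These 4 words were searched on both strands in RefSeq windows from 250 bases before to 50 after the start (GRCh38.p14). A word was found for 8 of the 13 S phase genes with a window and for 5 of 10 RB and E2F genes, against 3.99% of 27305 genes. It was found for 0 of the 7 G1 cyclin, CDK and inhibitor genes with a window, which says only that these words are not in these windows. CCND1, CCND2 and CDK2 had no window in the table. The windows below are on the minus strand, at chr20:33686336-33686635 for E2F1 and chr2:135876394-135876693 for MCM6, and capitals mark the words on either strand, which overlap in MCM6.
E2F1: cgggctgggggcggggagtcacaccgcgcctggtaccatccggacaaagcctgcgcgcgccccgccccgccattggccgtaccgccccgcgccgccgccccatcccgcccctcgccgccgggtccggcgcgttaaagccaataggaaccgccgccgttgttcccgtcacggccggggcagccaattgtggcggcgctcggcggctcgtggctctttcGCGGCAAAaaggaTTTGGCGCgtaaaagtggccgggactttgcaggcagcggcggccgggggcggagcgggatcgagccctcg
MCM6: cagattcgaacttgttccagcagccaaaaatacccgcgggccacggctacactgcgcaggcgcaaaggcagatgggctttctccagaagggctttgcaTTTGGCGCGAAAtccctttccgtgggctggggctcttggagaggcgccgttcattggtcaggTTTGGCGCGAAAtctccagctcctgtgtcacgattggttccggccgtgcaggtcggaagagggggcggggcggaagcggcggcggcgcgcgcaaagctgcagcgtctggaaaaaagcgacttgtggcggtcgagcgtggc
A match is a description of the sequence and not evidence of binding in these cells.

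Of the 15 measured S phase genes, 0 were called higher by limma (0 also at an unadjusted p under 0.05) and MCM4 alone lower. Among all genes 4.94% were called higher and 3.46% lower. The median difference of the S phase genes was -0.05. MCM6 had a difference of 0.05 and PCNA, the replication clamp, one of 0.06 (adjusted p = 0.925 and 0.922, limma). None of 12 genes of G2 and mitosis was called by limma, beside 8.4% of all genes. Of the 12, 0 reached an unadjusted p under 0.05 (17.9% of all probe sets did), and their median difference was 0.09. CDK1, the mitotic kinase, was 17669 ± 2411 and 17882 ± 5146 (SD, n = 5; difference -0.02, adjusted p = 0.983).

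Of 11 regulators of D-type cyclin and CDKN1B transcription, 3 were called higher and 0 lower by limma, beside 4.94% and 3.46% of all genes. The counts were the same at an unadjusted p under 0.05 (17.9% of all probe sets reached it), and the median difference was 0.33. STAT5A, a transcription factor that BCR-ABL activates and that is known to act on the CCND2 gene, rose in both probe sets, by 1.48 and 1.41 (adjusted p = 0.000706 and 0.00555, limma). STAT5B, its close relative, had a difference of 0.10 (adjusted p = 0.846). EZH2, the histone methyltransferase of the Polycomb complex that acts at the CDKN2A and CDKN1C genes in other cells, rose from 6670 ± 1388 to 13421 ± 1662 (difference 1.01, adjusted p = 0.00496). TCF7L2, a partner of beta-catenin, was called at 0.99 (adjusted p = 0.046) although of all arrays only 1, a resistant one, exceeded the limit. It lost its call without any 1 array other than resistant array 2, at adjusted p-values of up to 0.11. FOXO3, which acts on the CDKN1B gene, had a difference of 0.44 (adjusted p = 0.434).

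**Figure D4:**
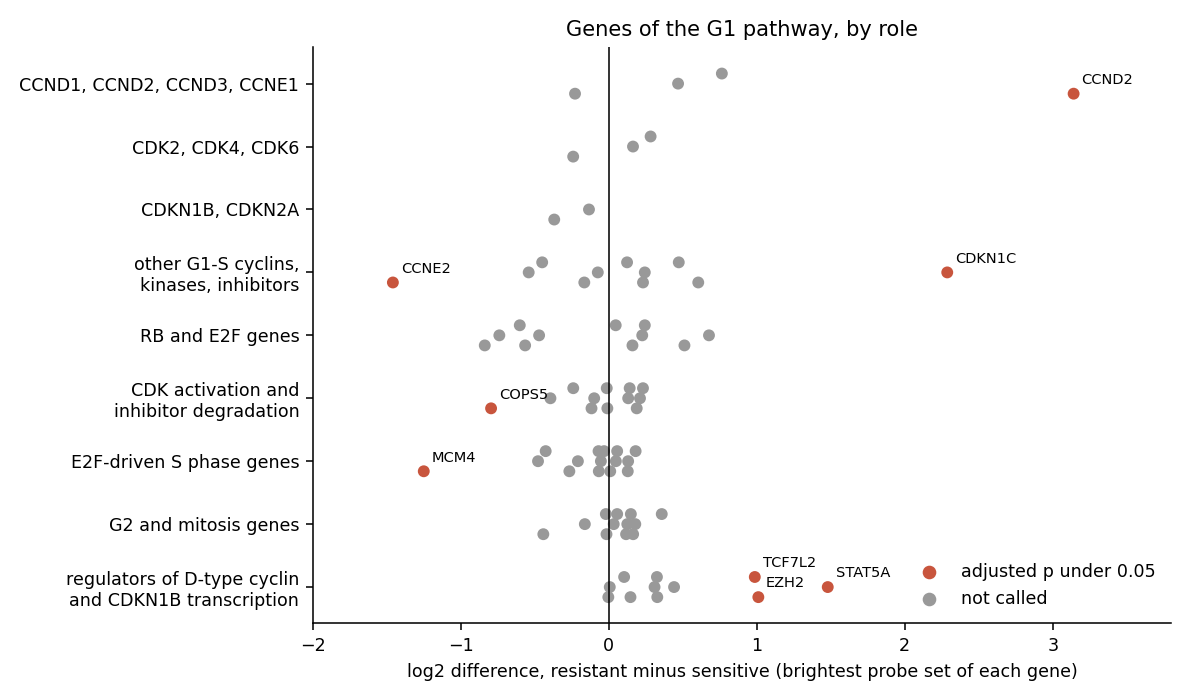
Log2 difference, resistant minus sensitive, of the brightest probe set of each gene, grouped by role, in red and named where the adjusted p in limma was under 0.05. CCND2 at 3.14 and CDKN1C at 2.29 lie farthest to the right, CCNE2 at -1.46 farthest to the left, and the S phase and mitosis genes other than MCM4, none of them called, run from -0.48 (RRM2) to 0.36 (BUB1).

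By position, 4 of the 9 measured genes lie on chromosome 12 (CCND2, CDKN1B, CDK2 and CDK4). The median difference of the 306 genes there that were above the limit on at least 3 arrays of either group was 0.04, against 0.03 for all such genes. Of the 8 nearest measured genes, 4 on either side of CCND2, 0 were called in limma (an unadjusted p under 0.05 was reached by 0 that were higher and 1 that was lower), and their differences ran from -0.63 (FGF6) to 0.26 (TEAD4). FGF6, TEAD4, TSPAN9 and AKAP3 were dim, above the limit on fewer than 3 arrays of each group, and the other 4, FOXM1, TULP3, RAD51AP1 and DYRK4, ran from -0.31 to -0.04.

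The profile of CCND2 36650_at over the 10 arrays was compared with that of every named probe set of another gene, by the root mean square difference of log2 signals after each was centred on its own mean. The 5 nearest were TBC1D9 (a GTPase-activating protein for Rab proteins, 0.27), S100A13 (a calcium-binding protein, 0.35), RAB31 (a Rab GTPase, 0.39), MEST (an imprinted gene, 0.40) and PDE4DIP (a Golgi and centrosome protein, 0.43). Their log2 differences between the groups ran from 3.04 to 3.29, beside 3.14 for CCND2. Taken over both groups, the measure rests largely on the size of that difference, and shared regulation was not tested. TBC1D9, the nearest, gave 53.9, 414, 393, 367 and 214 on sensitive arrays and 3548, 3347, 3091, 2439 and 2528 on resistant arrays. In TBC1D9 as in CCND2 all sensitive arrays were at or below the limit, which also holds for S100A13, MEST and PDE4DIP but not for RAB31, so the order of the sensitive arrays is not read. The order of the resistant arrays differed, since resistant array 1 was highest in TBC1D9 and resistant array 3 in CCND2.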

How the data were processed

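RNA of 10 samples was hybridised to 1 array each. The deposited intensity values are signals that the authors made with MAS5, per the submitters' processing notes, at a common level (2% trimmed means of 2501.33 to 2501.51). Of 12625 probe sets, 67 controls were left out. The platform annotation, updated to GRCh38.p14 gene names, named 1 gene for 10943 probe sets. Arrays were scaled to one trimmed mean, and log2(signal + 114.8), the constant being the 20th percentile of all signals, was fitted in R 4.3.3 with limma 3.58.1 (lmFit, eBayes) and no covariates, a script tested on simulated data. The brightest probe set stood for a gene. A fold is "at least" where no array of a group exceeded its limit. The genes and lists were chosen with earlier results of these data known. Named are all probe sets of the 10 genes, pathway genes whose brightest probe set was called (up to 8 per list) and the 5 profiles nearest to the called probe set with the largest difference, and further genes for their role, which were picked after the values were seen. The number of arrays limits the precision. Alternatives were 2 other constants, 2 other scalings, a filter on dim probe sets, a replicate block, another variance model and leaving out each array, and for the ratios, added after seeing the data, setting dim signals to the limit. A planned ratio of CDKN2C to CDK4 could not be computed.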

Additional observations from a re-analysis of the deposited data

Results flagged for a closer look

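In CDKN1B 33848_r_at, resistant array 1 had a signal of 220.6 where the other 4 resistant arrays had 471.9 to 607.7, a gap of 0.73 of the whole range on the log2 scale, past the critical value of 0.71 for 5 arrays. It was the 1 value so marked among 36 groups of arrays examined, and chance marks about 1 in 20 groups.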

How the results depend on the processing

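Both CCND2 probe sets stayed called and no other of the 18 was called under any of the 17 alternatives, with adjusted p-values in limma of up to 0.00044 for 36650_at and 0.0363 for 1983_at, both highest with the replicate block. CDKN1C, CCNE2, MCM4, EZH2 and STAT5A also kept their direction and call under every alternative run. Of the members not called, CCND1 came nearest to a call without resistant array 5. There 2020_at had 1.59 and 38418_at 1.05 (adjusted p = 0.06 and 0.0692, limma). CDKN1B 2034_s_at had -1.29 without sensitive array 3 (adjusted p = 0.07). The count of calls over all probe sets ran from 691 (without sensitive replicate 2) to 1169 (intensity trend and robust prior), against 931, and that over the pathway genes from 5 to 10, against 7. The labels do not say what same-numbered arrays share beyond the number (correlations of their deviations from 0.01 to 0.12). With the replicate block 794 probe sets were called, and 3 of 5 sensitive and 1 of 5 resistant arrays correlated best with their own number. The change of the CCND2 to CCND3 ratio, 3.37, had p = 0.0625 with the block (exact sign changes over 5 pairs), the smallest that 5 pairs can give. The block also ended the calls of COPS5 and TCF7L2 (adjusted p = 0.0513 and 0.0917), and the cause was not tested. TCF7L2 kept its call in 1 of 16 alternatives. TFDP1 37757_at, not called at an adjusted p of 0.0502, was called with the constant at the 40th percentile (0.0199), quantile scaling (0.0457), the filter on dim probe sets (0.0207), the intensity trend (0.00715) and without resistant array 1 (0.0241). With signals at or below the limit set to the limit, an alternative chosen after seeing the data, the shift of the CCND2 to CCND3 ratio was 2.60 (p = 0.0159 adjusted over the 2 ratios, exact permutation). Common-median scaling moved the median of all differences from 0.03 to -0.07. The filter left CCND1 2017_s_at, CCNE1 2021_s_at and CDKN1B 33848_r_at untested. Dim probe sets limit what can be seen: 8 of the 18 were above the limit on all 10 arrays.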

Other observations

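CDKN1C and MEST, a profile close to CCND2, are both imprinted genes, expressed mainly from the copy of 1 parent, and other imprinted genes were looked up after this had been seen. Of 22 listed, 19 were measured, 3 were called higher and 0 lower in limma (5 and 0 at an unadjusted p under 0.05), beside 4.94% and 3.46% of all genes. The list was written with 2 of the 3 known, so the count is a description. The third was PHLDA2, a growth-restraining gene of the placenta that lies 3 measured genes from CDKN1C on chromosome 11. PHLDA2 gave 19.8, 13.3, 561, 79.9 and 22.4 on sensitive arrays and 4364, 4053, 3813, 3647 and 2436 on resistant arrays, at least 7.41-fold higher (adjusted p = 4.51e-05, limma). Between these genes SLC67A1 had a log2 difference of 1.17 (adjusted p = 0.217), and on the outer sides KCNQ1 had -0.02 and NAP1L4 -0.02 (adjusted p = 0.989 and 0.984). None of the 5 listed genes above the limit on all 10 arrays was called. The arrays do not tell the parental copies of a gene apart, so imprinting in these cells was not tested. GNAS had a difference of -0.33 (adjusted p = 0.332), UBE3A -0.18, IGF2R -0.04, PLAGL1 -0.03 and GRB10 0.31. NNAT, above the limit on 2 sensitive and 4 resistant arrays, had 0.91 (adjusted p = 0.25), and IGF2, above it on all but 1 resistant array, had -0.19.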
